A study of Mus musculus with 6 samples.

Results

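The genes described here encode the proteins of the mitochondrial ribosome. They were taken as the protein-coding genes whose symbol begins with Mrpl or Mrps followed by a digit and whose mean FPKM (mapped fragments scaled to transcript length and to the size of the library) over the 6 samples was at least 1. Of 28773 gene IDs in the files, 82 carried such a symbol, 78 of these were protein-coding, and all 78 reached the minimum, so that none was lost to it. The lowest of the 78, Mrpl53, stood at a mean of 1.15 FPKM. The nearest symbol under the limit, Mrpl23-ps1 at 0.99 FPKM, was a pseudogene.

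RNA had been sequenced from CD8+ T cells of the spleen, taken at day 35 from tumour-bearing mice whose tumour had been treated by microwave ablation (MWA). After ablation, 3 samples came from mice given phosphate-buffered saline (MWA+PBS, replicates 1 to 3) and 3 from mice given 2-deoxy-D-glucose, which enters cells like glucose and inhibits glycolysis (MWA+2DG, replicates 4 to 6). Ablation was thus common to both groups, and the comparison was of 2DG with its vehicle. By the study's methods the injections had ended some days before the cells were taken, and the study detected no drug in plasma by then. The differences below are therefore those of cells taken after the treatment, not during it. The study's methods name a CD8+ T cell isolation kit for the spleen cells and female mice throughout, while the labels of these samples give neither the strain, the tumour line nor the age. The labels do not say that the samples of a group came from separate animals, so p-values measure the spread between these samples, and they give no batch, so that a batch and the group cannot be told apart.

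Mitochondria carry their own ribosome, which translates the few membrane proteins of the respiratory chain and ATP synthase that mitochondrial DNA encodes. Its ribosomal RNAs, mt-Rnr1 in the small subunit and mt-Rnr2 in the large one, are made inside the organelle, whereas every one of its proteins is encoded in the nucleus, made in the cytosol and imported. Some of these proteins descend from bacterial ribosomal proteins and others were added in mitochondria. In CD8+ T cells, mitochondrial translation is needed when activated cells expand and when they depend on respiration.

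Cd8a lay between 225.8 and 239.3 FPKM in MWA+PBS and between 359.0 and 377.1 FPKM in the MWA+2DG samples, and Cd4 was at 1.66 ± 0.11 (SD, n = 3) in MWA+2DG and 2.75 ± 0.16 in MWA+PBS. The libraries also held transcripts of other cells, and these moved with the group. Of the marker genes tested, 12 of 13 for neutrophils and 10 of 11 for B cells rose, whereas 14 of 15 for monocytes and macrophages and 9 of 9 for erythroid cells fell (limma, adjusted p under 0.05). The other gene of the macrophage list, Lyz2, was called higher, from a mean of 171 FPKM in MWA+PBS to 227 in MWA+2DG. It is part of the macrophage sums below. Smaller lists gave 1 higher and 2 lower of 5 for plasma cells, 1 and 1 of 3 for natural killer cells, 0 and 2 of 2 for dendritic cells and 0 and 1 of 5 for CD4 T cells. In the plasma cell list Irf4 rose while Xbp1 and Jchain fell, and in the natural killer list Eomes rose while Ncr1 fell. Of 30 genes of proliferation, 28 fell. The summed neutrophil markers ran from 67.6 to 92.2 FPKM in the MWA+PBS samples and from 1602 to 1784 in those given 2DG, the B cell markers from 13.8 to 14.8 and from 77.4 to 82.7, the macrophage markers from 1047 to 1117 and from 334.7 to 373.3, and the erythroid markers from 296.3 to 352.1 and from 69.0 to 87.1. The T lineage markers rose in 18 of 20 genes, from 2097 to 2232 FPKM in MWA+PBS to between 2951 and 3159 in MWA+2DG. No gene of these lists that the files hold was at 0 in all 6 libraries. The part of this shift in the values below was not tested, and in bulk RNA fewer cells of a type and less RNA per cell cannot be told apart.

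The 78 genes covered a 30.6-fold range of level. Their median was 5.67 FPKM, with quartiles at 3.82 and 8.81, 15 genes at 10 FPKM or more and 4 below 2 FPKM. The highest was Mrpl24, a protein of the large subunit near the exit of the peptide tunnel, with 32.11, 34.03 and 28.37 FPKM in MWA+PBS and 40.31, 37.56 and 38.17 in MWA+2DG. The second was Mrpl18, the homologue of a bacterial protein of the central protuberance that binds 5S rRNA, with 21.11, 26.41 and 20.47 FPKM in MWA+PBS and 24.27, 19.74 and 25.16 in MWA+2DG. Mrpl10, which anchors the stalk that recruits translation factors, followed at a mean of 20.4 FPKM. The levels of Mrpl18 and Mrpl10 did not differ beyond their spread over the samples, while every Mrpl24 value was above every value of the other two. The exons of Mrpl18 overlap those of Tcp1 on the opposite strand, which was listed at 46.0 FPKM. Such overlaps with other genes concerned 32 of the 78 members, 7 of them among the 13 called below, and since it is not known whether strand was used in counting, reads of overlapping genes cannot be told apart.

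At the low end stood Mrpl53 at a mean of 1.15 FPKM, Mrpl48 at 1.60 and Mrpl17 at 1.66, all of the large subunit. The values of Mrpl53 were 1.42, 0.76 and 0.65 FPKM in MWA+PBS and 1.60, 1.16 and 1.30 in MWA+2DG, and those of Mrpl17 were 1.61, 1.57, 1.57, 2.07, 1.73 and 1.43 in the same order. Mrpl48 had 1.74, 1.88 and 1.51 FPKM in MWA+PBS and 1.77, 1.06 and 1.63 in MWA+2DG. These 3 genes overlapped in their values and cannot be ordered. For 2 of them the level also depends on how reads were assigned. Mrpl53 shares 419 bases at 100% identity with Gm42688, a protein-coding gene of the same strand listed at 6.26 FPKM. Mrpl48 shares 636 bases at 98.1% with the processed pseudogene Mrpl48-ps, listed at 6.02 FPKM. Mrpl48 held 21% of their joint FPKM, which is divided by length and so is not a share of reads.

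A shared subunit did not bring a shared level. Although an assembled ribosome holds most of these proteins in equal number, the transcripts ran from 1.15 to 35.1 FPKM in the large subunit and from 2.09 to 15.6 FPKM in the small one, and across the 78 genes the mean FPKM fell with the length of the longest annotated transcript (Spearman's rho = -0.56, given as a description since the points share the same 6 libraries and FPKM is itself divided by length). Across the 10138 protein-coding genes tested the same rho was -0.02. The order of the members was nearly the same in the 2 groups, with rho = 0.96 between group means.

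**Figure D1:**
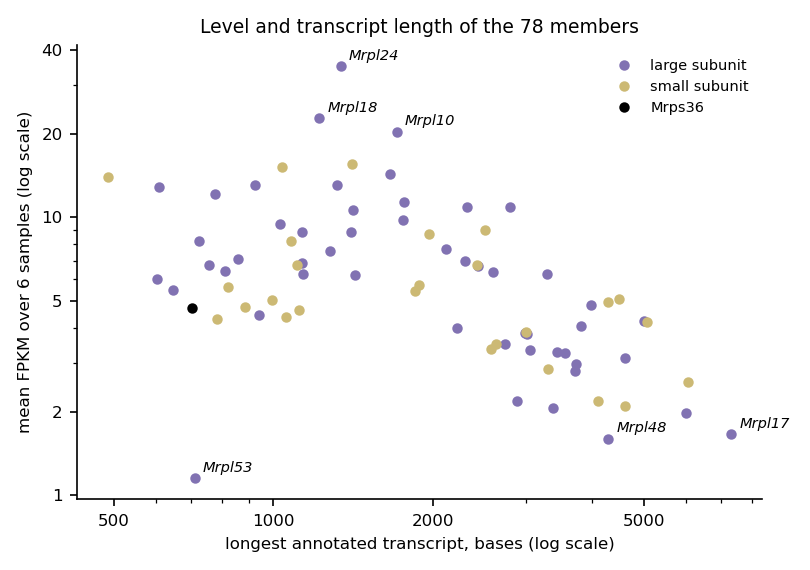
Mean FPKM over the 6 samples against the longest annotated transcript in bases for the 78 genes, 1 point each, both axes on a log scale, coloured by subunit. Long transcripts lie lower, with Mrpl17 at the right edge, and Mrpl53 is the low point among the short ones.

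The promoters of the members are shown because the same short sequence recurs in many of them. RefSeq windows of 250 bases before and 50 after the start (build GRCm38.p6) were found for 69 of the 78 genes, 75 windows in all, and were searched on both strands. CCGGAAG, the core bound by ETS factors such as GABP, lay in 26 of the 75 windows (34.7%), against 19.5% of the windows of genes tested and 8.86% of all 32851. GCGCATGCG, a core of the NRF1 site, lay in 7 (9.33%), against 3.89% and 1.75%, and AAGATGGCG, the core of the YY1 site, in 8 (10.7%), against 3.41% and 1.4%. The E-box CACGTG, to which MYC binds, was held by 9.33% of members' windows and 10.3% of those of genes tested, and TATAAA by 6.67% and 6.92%. The promoters of cytosolic ribosomal proteins held CCGGAAG in 36% and GCGCATGCG in 4% of windows, and those of nuclear respiratory chain subunits in 22.9% and 11.4%, while AAGATGGCG lay in 8% and 10% of the windows of these sets. The motifs were chosen after the values had been seen, and a match describes letters, not binding.
The stretches around the match, upstream of the start, are given for the genes of the next paragraphs in which no annotated exon of the gene reaches the stretch, all on the plus strand, with the match in capitals. They lie at chr11:97041423-97041479 for Mrpl10 (NRF1 core, read on the other strand), chr11:115403711-115403751 for Mrpl58 (ETS core) and chr14:54426838-54426892 for Mrpl52 (ETS core, read on the other strand).
Mrpl10: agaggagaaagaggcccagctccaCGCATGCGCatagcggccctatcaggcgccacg
Mrpl58: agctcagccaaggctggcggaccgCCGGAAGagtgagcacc
Mrpl52: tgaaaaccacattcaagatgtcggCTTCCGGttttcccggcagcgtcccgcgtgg

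The comparison of MWA+2DG with MWA+PBS asked whether 2DG after ablation went with another level of these transcripts. In FPKM as deposited, the scale of all values below unless another is named, few of them passed the test. Of the 78 genes, 11 rose and 2 fell at an adjusted p under 0.05 (limma on log2(FPKM + 1), Benjamini-Hochberg over all 12444 genes tested), and 65 did not pass. That is 16.7% of the members, where 39.4% of all genes tested were called, 22.3% higher and 17.1% lower. The study's own rule asks for P under 0.05 and for a log fold change of more than 0.25 either way. Read here as unadjusted P and as log2, it gave 8 members that rose and 2 that fell, against 21.6% and 16.6% of all genes. The groups did not overlap in FPKM for 21 members that were higher in MWA+2DG and 6 that were lower, against 30.2% and 21.9% of all genes.

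The differences of the members were also small in size. Their median log2 fold change was 0.08, against 0.05 for all genes tested, and the median of the absolute differences was 0.14 against 0.21. Of the members, Mrps6 alone differed by more than 0.5 on the log2(FPKM + 1) scale, as did 18.2% of all genes, and 13 members differed by more than 0.25, as did 42.4% of all genes. That scale understates the differences of low genes, and with a pseudocount of 0.1 in place of 1 Mrpl58 (0.57) and Mrpl53 (0.54) also lay beyond 0.5. The precision was like that of other genes, with a median SE of 0.09 for members and 0.09 for all genes. For 59 of the 65 members that were not called, the 95% interval of the difference lay within 0.5 in either direction. The direction depended on the scale: with each library scaled to its T lineage genes, the median of all genes moved to -0.33, the members' median to -0.28, and 0 members were higher and 50 lower, with 5.01% of all genes higher and 61.6% lower. Relative to the median of all genes, the members' median was 0.03 as deposited and 0.05 under that scaling. Leaving out 1 sample moved this distance between 0.004 (without MWA+2DG replicate 4) and 0.067 (without MWA+PBS replicate 2), with 0.008 without MWA+PBS replicate 3 and 0.063 without MWA+2DG replicate 5. It was 0.080 with no filter on low values and 0.015 with a minimum mean of 5 FPKM.

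**Figure D2:**
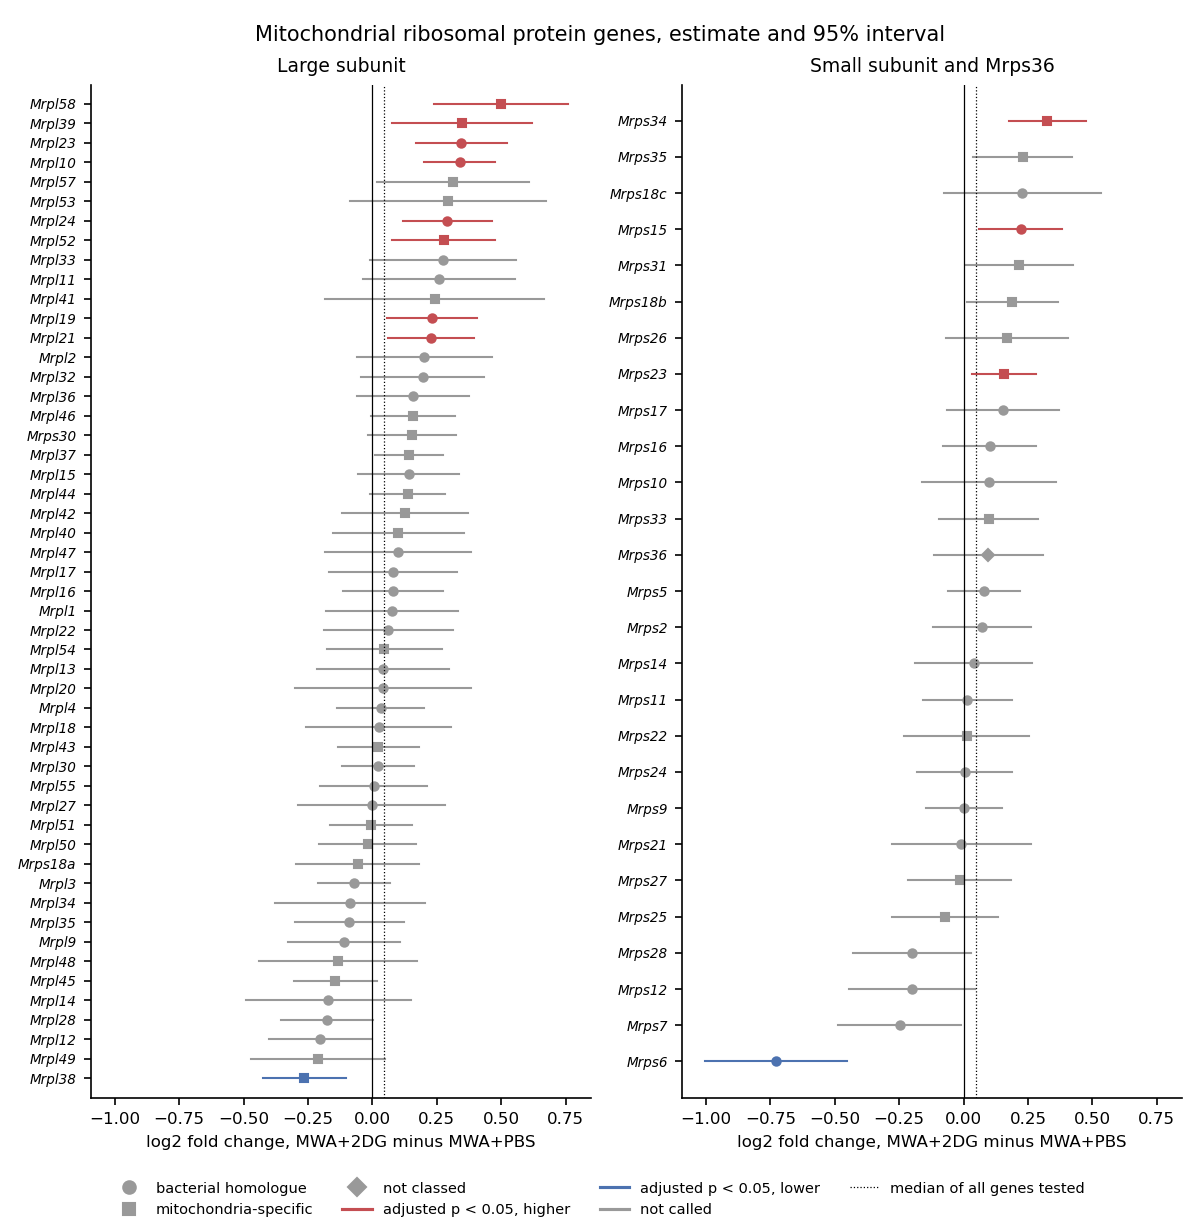
Log2 fold change, MWA+2DG minus MWA+PBS, of each of the 78 genes with its 95% interval, in FPKM as deposited, for the large subunit (left) and the small subunit with Mrps36 (right). Symbols mark the class and colours the call, and most intervals cross 0, with 11 genes called higher and 2 lower. With libraries scaled to T lineage genes, 0 are higher and 50 lower, where 5.01% of all genes are higher and 61.6% lower.

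**Figure D3:**
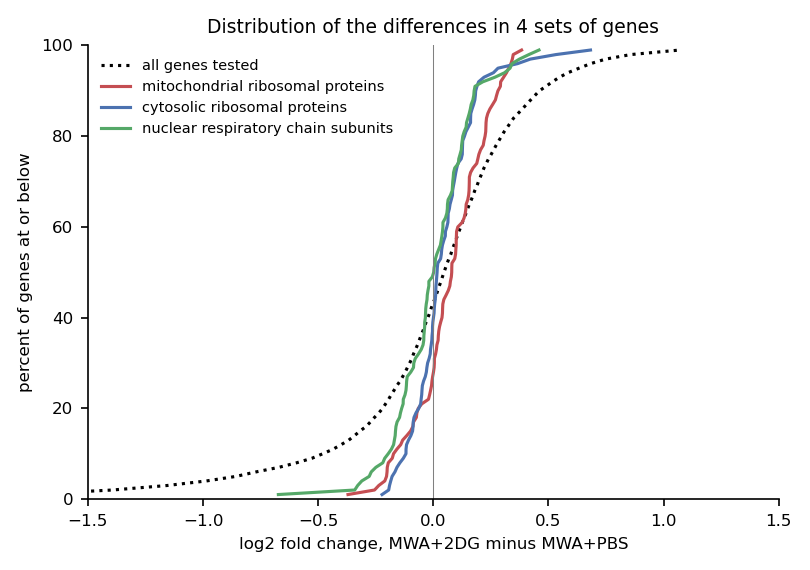
Percent of genes at or below each log2 fold change for all 12444 genes tested and for 3 sets, in FPKM as deposited. The curves of the ribosomal protein and respiratory chain sets are steeper than that of all genes, and the members' median of 0.08 lies to the right of those of the other 2 sets, 0.02 and 0.001.

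Among large subunit proteins, 8 of 51 rose and 1 fell. Mrpl58, a protein of the large subunit that also acts as a peptidyl-tRNA hydrolase releasing stalled chains, had 5.66, 5.61 and 4.08 FPKM in MWA+PBS and 7.72, 7.19 and 7.84 in MWA+2DG. The groups were separate, with MWA+PBS replicate 3 below the rest, and the log2 fold change was 0.50 (SE 0.11, limma adjusted p = 0.010). The antisense gene Ict1os overlaps its exons and was listed at 1.31 FPKM.

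Mrpl10, the stalk anchor with the NRF1 core shown above, had 19.16, 17.03 and 17.55 FPKM in MWA+PBS and 22.27, 23.22 and 23.16 in MWA+2DG. The groups did not overlap, and the difference was 0.34 (SE 0.06, limma adjusted p = 0.0037). Of the other proteins of the stalk base, none was called in FPKM as deposited. Mrpl11, which lies beside it, gave 0.26 (SE 0.13), and Mrpl12, the flexible stalk protein that meets the translation factors, gave -0.20 (SE 0.09), with its groups not overlapping in the opposite direction. The remaining stalk base members, Mrpl53 and Mrpl54, gave 0.29 (SE 0.16) and 0.05 (SE 0.10). These calls moved with the settings, since Mrpl12 was called lower under median ratio scaling (-0.25) and T lineage scaling (-0.61), Mrpl54 was called lower under T lineage scaling, Mrpl11 was called higher with limma's sample weights (arrayWeights) and without MWA+PBS replicate 2, and Mrpl53 was called higher without MWA+PBS replicate 1 (0.46).

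Mrpl23 and Mrpl24 sit around the exit of the peptide tunnel, where nascent chains leave towards the inner membrane. Mrpl23 was at 2.30, 2.25 and 2.50 FPKM in MWA+PBS and at 3.45, 3.18 and 3.14 in MWA+2DG, separate in every sample, with a difference of 0.35 (SE 0.08, limma adjusted p = 0.0092). Mrpl24, whose 6 values are given above, rose by 0.29 (SE 0.07, limma adjusted p = 0.017). Without MWA+2DG replicate 4, its highest sample, Mrpl24 no longer passed. Its exons overlap those of Rrnad1 on the opposite strand, which was listed at 6.84 FPKM. Mrpl22 and Mrpl45, other proteins of the tunnel exit, gave 0.06 (SE 0.11) and -0.14 (SE 0.07) and were not called.

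The other large subunit genes that rose were Mrpl39, Mrpl52, Mrpl19 and Mrpl21. Mrpl39 had 6.17, 6.94 and 4.94 FPKM in MWA+PBS against 8.71, 7.21 and 7.76 in MWA+2DG (difference 0.35, SE 0.12, limma adjusted p = 0.048). Mrpl52, with the ETS core shown above, had 6.67, 6.77 and 5.52 against 7.66, 7.51 and 8.36 (0.28, SE 0.09, limma adjusted p = 0.037). In both, the lowest of the 6 samples was MWA+PBS replicate 3 and the groups did not overlap.
Mrpl19, a homologue of a bacterial protein at the subunit interface, rose by 0.23 (SE 0.07) and Mrpl21 by 0.23 (SE 0.07), at limma adjusted p-values of 0.042 and 0.039. Their exons overlap those of Gcfc2 (listed at 1.56 FPKM) and Ighmbp2 (3.43 FPKM) on the opposite strand. These 4 calls were close to the threshold, and each was lost when MWA+PBS replicate 1, MWA+PBS replicate 3, MWA+2DG replicate 4 or MWA+2DG replicate 6 was left out.

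Mrpl38, a mitochondria-specific protein of the central protuberance, was the large subunit gene that fell. It had 12.23, 11.82 and 11.04 FPKM in MWA+PBS and 8.83, 10 and 9.91 in MWA+2DG, with no overlap, and the difference was -0.26 (SE 0.07, limma adjusted p = 0.020). The call was lost without MWA+PBS replicate 1 and without MWA+2DG replicate 4. Its neighbours in the protuberance ran in both directions, from -0.13 for Mrpl48 through 0.03 for Mrpl18 to the 0.50 of Mrpl58.

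**Figure D4:**
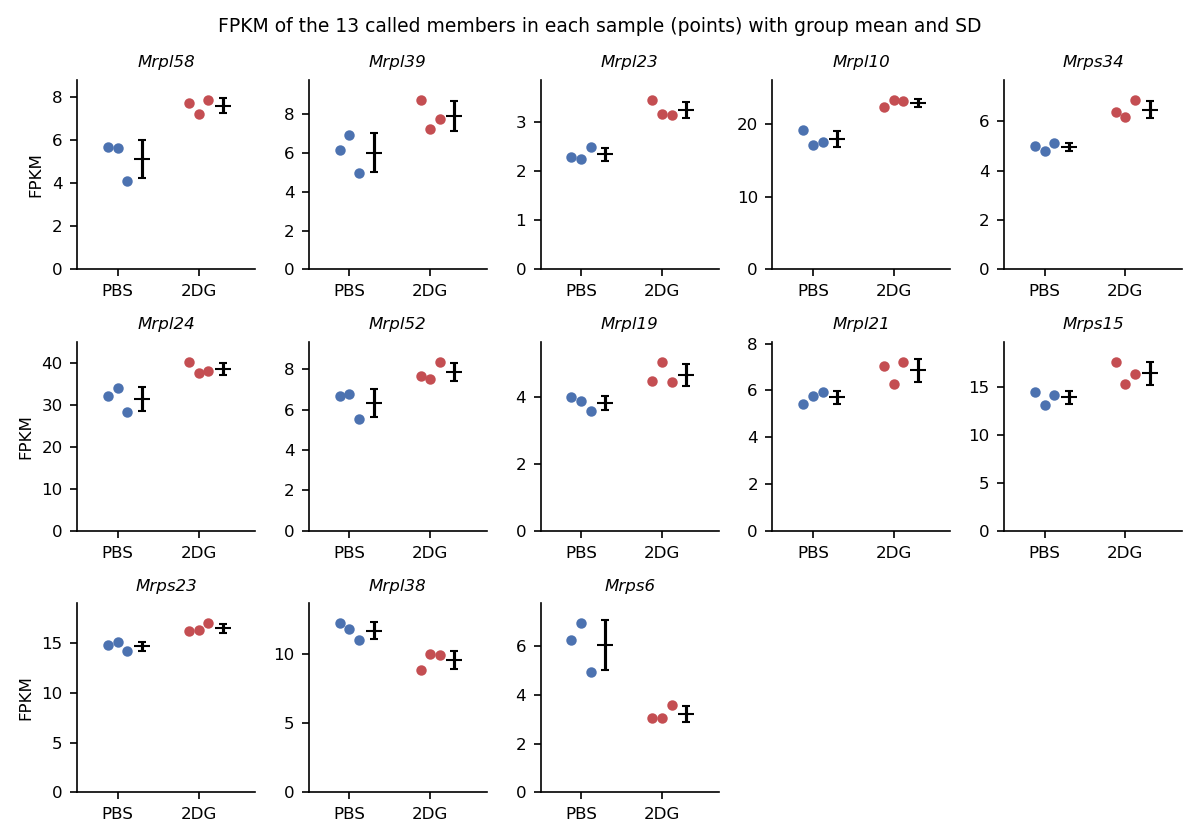
FPKM of the 13 genes called at an adjusted p under 0.05, 1 panel each, with a point per sample (blue, MWA+PBS, red, MWA+2DG) and the group mean with its SD (n = 3). The axes start at 0, and in all 13 panels the groups do not overlap, with Mrps6 showing the largest fold change.

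Among small subunit proteins, 3 of 26 rose and 1 fell. Mrps34, a mitochondria-specific protein required for a stable small subunit, had 5.00, 4.79 and 5.12 FPKM in MWA+PBS and 6.39, 6.20 and 6.86 in MWA+2DG. The groups were well apart with little spread within them, and the difference was 0.33 (SE 0.06, limma adjusted p = 0.0061). Its exons overlap those of Nme3 on the same strand, listed at 0.48 FPKM, and of Mapk8ip3 on the other, at 12.5 FPKM.

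Mrps15, which binds small subunit RNA early in assembly in bacteria, had 14.48, 13.17 and 14.20 FPKM in MWA+PBS and 17.65, 15.30 and 16.36 in MWA+2DG (difference 0.22, SE 0.07, limma adjusted p = 0.038). Mrps23, a mitochondria-specific protein, had 14.80, 15.05 and 14.18 against 16.17, 16.28 and 16.97 (0.16, SE 0.05, limma adjusted p = 0.049). Both were separate in every sample, yet neither call held when MWA+PBS replicate 1, MWA+PBS replicate 3, MWA+2DG replicate 4 or MWA+2DG replicate 6 was left out.

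Mrps6 differed most of the 78. The gene encodes a small subunit protein that pairs with the S18 protein in bacteria. It was at 6.25, 6.93 and 4.92 FPKM in MWA+PBS and at 3.04, 3.03 and 3.60 in MWA+2DG. Its lowest MWA+PBS sample was above its highest MWA+2DG sample, and the log2 fold change was -0.73 (SE 0.12, limma adjusted p = 0.0025). Mrps6 shares annotated exon sequence on the same strand with Slc5a3, the gene of the sodium-coupled myo-inositol transporter. Slc5a3 was at 4.49, 4.69 and 4.88 FPKM in MWA+PBS and 1.85, 1.96 and 1.59 in MWA+2DG, a difference of -1.02 (SE 0.08, limma adjusted p = 7.7e-05). The reads of the 2 genes cannot be told apart where their exons overlap, so the value of Mrps6 is uncertain.

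By origin, the 46 homologues of bacterial proteins had a median difference of 0.05, with 6 called higher and 1 lower, and the 31 mitochondria-specific proteins had a median of 0.14, with 5 higher and 1 lower. Within the large subunit the counts were 5 higher and 0 lower of 30 homologues and 3 higher and 1 lower of 21 specific proteins. Within the small subunit they were 1 and 1 of 16, and 2 and 0 of 10. No class reached the share of calls of all genes.

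The 3 paralogues of bacterial S18 occupy different places, Mrps18c (bS18m) and Mrps18b (mS40) in the small subunit and Mrps18a (mL66) in the large one. Mrps18b was at 7.71, 7.68 and 7.43 FPKM in MWA+PBS and 9.84, 8.14 and 8.53 in MWA+2DG, a difference of 0.19 (SE 0.08) that was not called, and reads may be shared with its processed pseudogene Gm13552, which was listed at 2.61 FPKM. Mrps18b was called higher with GC and length trends removed and with sample weights, and lower under T lineage scaling. Mrps18c gave 0.23 (SE 0.13) and Mrps18a -0.06 (SE 0.10), both not called. Mrps18c was called higher without MWA+PBS replicate 2, and Mrps18a lower under T lineage scaling. Their mean levels were 8.22, 5.61 and 3.98 FPKM in the order b, c and a.

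Mrps30 (mL65), a large subunit protein despite its symbol, was at 3.72, 3.95 and 3.68 FPKM in MWA+PBS and 4.64, 3.99 and 4.36 in MWA+2DG, a difference of 0.15 (SE 0.07) that did not pass. Its groups did not overlap, and it was called higher with sample weights and lower under T lineage scaling. Mrps36, now placed in the 2-oxoglutarate dehydrogenase complex and not in the ribosome, gave 0.10 (SE 0.09) and was called only under T lineage scaling, where it was lower. Its values were 5.05, 4.37 and 4.17 FPKM in MWA+PBS and 5.08, 4.38 and 5.27 in MWA+2DG, which overlap.

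Summed over the 78 genes, the members reached 541.2, 568.4 and 496.4 FPKM in MWA+PBS and 585.0, 544.9 and 570.4 in MWA+2DG. The means were 535.3 ± 36.4 (SD, n = 3) and 566.8 ± 20.3, and the groups overlapped. As a share of each library's summed FPKM the values were 0.176%, 0.181% and 0.165% in MWA+PBS and 0.192%, 0.184% and 0.195% in MWA+2DG, which do not overlap. The divisor, the summed FPKM of all genes, ran from 300522 to 313257 with PBS and from 291803 to 304627 with 2DG, which overlap. Within it, the 13 mRNAs encoded by mitochondrial DNA took between 62517 and 67673 FPKM with PBS and between 54282 and 59395 with 2DG. The ratio of large to small subunit sums was 2.40 ± 0.08 and 2.47 ± 0.05. With libraries scaled to T lineage genes the difference of the summed members turned from 31.5 to -137.2 FPKM.

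MWA+PBS replicate 3 lay low in these genes. It was the lowest of the 6 samples in 38 of the 78 members and the lowest of its group in 49 (62.8%), against 43.2% of all genes tested. MWA+2DG replicate 4 was the highest of the 6 in 26 members. For these counts over all 6 samples no share of all genes is given, so whether they are particular to the members is not known. Without MWA+PBS replicate 3, 5 members were called higher and 3 lower, with 17.2% and 15.1% of all genes in the same fit. Without MWA+2DG replicate 4 the counts were 4 and 2, with 16.1% and 13.7% of all genes. Mrpl10, Mrpl23, Mrpl58 and Mrps34 (higher) and Mrps6 (lower) were called in all 6 fits that left out 1 sample.

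The cytosolic ribosomal proteins build the ribosome of the cytosol. Of 82 tested, 2 were called higher (Rpl35a and Rps18) and 1 lower (Rpl7l1), and their median difference was 0.02. The nuclear respiratory chain subunits, which assemble with the products of the mitochondrial ribosome, had 4 called higher and 6 lower of 78 tested, and a median of 0.001. The shares called were 3.66% of the cytosolic ribosomal proteins and 12.8% of the respiratory chain subunits. Both were below the 16.7% of the members and the 39.4% of all genes, so a low share of calls was not particular to the members. The sum of the respiratory chain subunits over the sum of the mitochondrial ribosomal proteins was 3.07, 2.96 and 2.96 in MWA+PBS and 2.76, 2.74 and 2.70 in MWA+2DG, so that the ratio was lower in each MWA+2DG sample. The same ratio for the cytosolic ribosomal proteins was 37.7, 35.6 and 36.6 in MWA+PBS and 37.0, 35.5 and 33.9 in MWA+2DG, which overlap. A ratio of sums within a library does not depend on its scaling, but the highest genes weigh most in it. The respiratory chain sums themselves overlapped between the groups, and 40 subunits had a positive difference and 38 a negative one. Of the 6 called lower, Atp5a1 had means of 144.9 FPKM with PBS and 128.3 with 2DG, and Atp5b 112.9 and 97.4. The 4 called higher lay at lower levels than these. The lower ratio therefore does not show a fall of the whole set. The difference between the sets was not tested.

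The RNAs of the same ribosome fell. The small subunit RNA mt-Rnr1 was at 420.2, 494.4 and 445.6 FPKM in MWA+PBS and at 362.0, 354.5 and 315.9 in MWA+2DG, and the large subunit RNA mt-Rnr2 at 734.4, 836.2 and 784.8 against 425.9, 449.9 and 424.5. The groups did not overlap for either, and the log2 fold changes were -0.40 (SE 0.08, limma adjusted p = 0.0081) and -0.85 (SE 0.07, limma adjusted p = 8.6e-05). These libraries were made from RNA selected by its poly(A) tail, so the values count only rRNA that passed that selection. Of the 13 mRNAs encoded by mitochondrial DNA, mt-Co1 fell by 0.36 on the log2 scale (SE 0.11), mt-Nd6 was higher by 0.36 (SE 0.09), and 11 were not called.

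The 5 mitoribosomal proteins with other symbols did not pass the test. Dap3, a GTP-binding protein of the small subunit, was at 6.80 ± 0.22 FPKM (SD, n = 3) in MWA+PBS and 6.41 ± 0.28 in MWA+2DG (difference -0.07). The differences of Ptcd3, Chchd1 and Aurkaip1, all of the small subunit, were 0.09, 0.04 and 0.10, and that of Gadd45gip1 in the large subunit was -0.15. The SEs of the 5 ran from 0.06 to 0.13.

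Other genes build and serve the mitochondrial ribosome. Of 25 assembly factors tested, 7 rose and 1 fell, with a median of 0.19. Gtpbp10 and Mtg1, GTPases that act on the large subunit, rose by 0.57 (SE 0.08) and 0.50 (SE 0.08), and Ngrn, needed for large subunit RNA, by 0.42 (SE 0.10), while Noa1, a GTPase of small subunit assembly, fell by 0.22 (SE 0.07). Gtpbp10 went from 1.14 ± 0.09 FPKM in MWA+PBS to 2.17 ± 0.06 in MWA+2DG. The share called, 32%, was below the 39.4% of all genes.

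Of 14 translation factors, the initiation factor Mtif2 rose by 0.47 (SE 0.08) and the GTPase Guf1 by 0.44 (SE 0.09), and the elongation factor Gfm1 fell by 0.30 (SE 0.07). The elongation factor Tufm, at -0.03 (SE 0.06), and Lrpprc, which stabilises mitochondrial mRNAs, at -0.07 (SE 0.06), were not called. In all, 21.4% of the 14 were called. Of 20 enzymes that charge mitochondrial tRNAs, 5 rose and 1 fell (30% called). Both shares were below the 39.4% of all genes. Rars2 rose by 0.42 (SE 0.08) and Qrsl1 by 0.41 (SE 0.08), while Fars2 fell by 0.30 (SE 0.09).

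Mitochondrial transcription and DNA maintenance had the highest share called among the mitochondrial lists with more than 2 genes, 9 higher and 1 lower of 13 (76.9% called), with a median of 0.27. Mterf1a, Mterf1b and Mterf2, of a family of proteins that bind mitochondrial DNA, rose by 0.92 (SE 0.08), 0.55 (SE 0.13) and 0.50 (SE 0.14), and Tfam, which packs mitochondrial DNA and starts its transcription, by 0.26 (SE 0.07). Mterf1a and Mterf1b are close paralogues, so reads may have been split between them. The helicase Twnk fell by 0.43 (SE 0.06), and its exons overlap those of Mrpl43 on the opposite strand. The RNA polymerase Polrmt gave -0.16 (SE 0.06) and was not called in FPKM as deposited, but was called lower under quantile normalization (-0.19), median ratio scaling (-0.20), T lineage scaling (-0.55) and with sample weights (-0.15).

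Of 15 mitochondrial chaperones and proteases, 3 fell and 1 rose (26.7% called, against 39.4% of all genes), and their median was -0.04. Hspd1 and Hspe1, the partners of the folding chamber that receives imported proteins, fell by 0.91 (SE 0.07) and 0.67 (SE 0.08), and Hspa9, the import motor chaperone, by 0.30 (SE 0.05). Oma1, a protease of the inner membrane, rose by 0.20 (SE 0.06). Among 8 regulators tested (37.5% called), Myc rose by 0.27 (SE 0.06), Ppargc1b, a coactivator of mitochondrial genes, fell by 0.61 (SE 0.07), and Nrf1, the factor whose site was searched above, by 0.29 (SE 0.08).

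**Figure D5:**
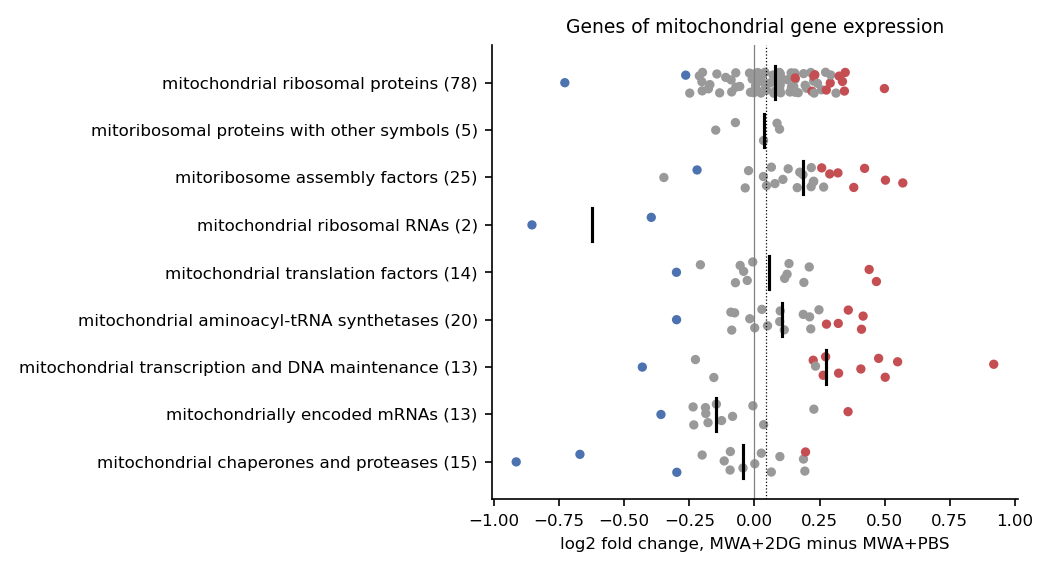
Log2 fold change, MWA+2DG minus MWA+PBS, in FPKM as deposited, of the genes tested in 9 lists of mitochondrial gene expression, 1 point per gene (red, called higher, blue, called lower, grey, not called), with the median of each list as a black bar and that of all genes as a dotted line. The ribosomal proteins lie close to 0, both ribosomal RNAs lie below it, and the transcription and DNA maintenance genes have a median of 0.27. With libraries scaled to T lineage genes, Tfam turns to -0.14 and the members' median to -0.28, where the median of all genes is -0.33.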

How the data were processed

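RNA of splenic CD8+ T cells was selected by poly(A), marked by strand, given molecular identifiers and sequenced in pairs. The authors deposited 1 FPKM value per gene and sample. The submitters' processing notes name cutadapt 1.9, HISAT2 2.0.4, UMI-tools, StringTie 1.3.4d and the build mm9, and the paper names ballgown for the FPKM. Read counts and depth are not given, so precision rests on the 3 samples per group. No source used here says whether strand was used in counting.

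Symbols came from GENCODE M21 (GRCm38) by Ensembl ID, with 28689 of 28773 IDs matched. Since this is another build, gene coordinates are not printed. Only promoters carry RefSeq GRCm38.p6 positions. Genes with a mean of at least 1 FPKM (12444) were tested on log2(FPKM + 1), which understates changes of low genes, with limma 3.58.1 in R 4.3.3 (lmFit and eBayes with trend, a two-sided test of MWA+2DG less MWA+PBS), after a check on simulated data. Copies were sought with BLAST 2.17.0 (95% identity over 300 bases), and exon overlaps in GENCODE. Such copies or overlaps were found for members named above.

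The members, gene lists and motifs were chosen with earlier results of these data known. Members were named if called, if among the 3 highest or lowest in level, or as S18 paralogues, Mrps30 and Mrps36, and neighbours of a called member in the ribosome (Mrpl11, Mrpl12, Mrpl22, Mrpl45, Mrpl53, Mrpl54) were named after their values were seen. Of other lists, up to 3 called genes in each direction were named, with Myc, Tfam, Polrmt, Lrpprc and Tufm. Alternatives changed the pseudocount, filter, scaling, GC and length trends, variance model and samples.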

Additional observations from a re-analysis of the deposited data

How the results depend on the processing

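No paired analysis was possible because no number is common to samples 1 to 3 and samples 4 to 6. The number of members called higher, 11, was 6 with no filter on low values or with median ratio scaling, 18 with arrayWeights and 0 with T lineage scaling. The share of all genes called higher moved with it, from 22.3% to 9.03%, 18.7%, 29.1% and 5.01% in that order. The number called lower, 2, was 1 with a mean FPKM of at least 5 (which left 44 members and not Mrps6), 4 with median ratio scaling or arrayWeights and 50 with T lineage scaling, where 15.9%, 19.8%, 21.5% and 61.6% of all genes were called lower, against 17.1%. Leaving out 1 sample gave 4 to 11 higher, 1 to 3 lower and a median of 0.04 to 0.12. The members' median of 0.08 turned to -0.28, and the difference of summed FPKM of 31.5 to -137.2, with T lineage scaling. Only part of the genes were followed singly through the alternatives, and Mrpl11, Mrpl22, Mrpl45 and Mrpl54 were not among them. Of those followed, T lineage scaling also turned Mrpl10 (-0.083), Mrpl17 (-0.19), Mrpl18 (-0.40), Mrpl19 (-0.12), Mrpl21 (-0.15), Mrpl24 (-0.14), Mrpl39 (-0.036), Mrpl52 (-0.11), Mrps15 (-0.19), Mrps18b (-0.20), Mrps18c (-0.15), Mrps23 (-0.26), Mrps30 (-0.20), Mrps34 (-0.050), Mrps36 (-0.27), Aurkaip1 (-0.31), Chchd1 (-0.37), Myc (-0.17), Ptcd3 (-0.31) and Tfam (-0.14). Other members turned as well, among them Mrpl22 and Mrpl54, which were called lower with it. This scaling subtracts the rise of the T lineage genes from every gene. Of the genes followed singly, median ratio scaling turned Chchd1 (-0.011) and Mrpl18 (-0.024), and arrayWeights turned Chchd1 (-0.049). Among the genes followed singly, leaving out 1 sample turned 6 that were not called, with ranges of -0.041 to 0.14 for Mrpl18, -0.080 to 0.12 for Chchd1, -0.0045 to 0.22 for Aurkaip1, -0.0043 to 0.16 for Mrpl17, -0.12 to 0.029 for Mrps18a and -0.072 to 0.0033 for Tufm. The other members were not followed in this way. Mrpl10, Mrpl23, Mrpl58, Mrps34 and Mrps6 kept their calls in 14 alternatives, all but T lineage scaling and the filter at 5 FPKM. The cause of the other changes was not tested. With no counts, the depth behind the low members is unknown.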
